A study of Rattus norvegicus with 20 samples.

Results

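Ethinyl estradiol and estradiol benzoate, 2 estrogens given by mouth at the same dose of 0.15 mg/kg per day, were compared in rat mesenteric artery. The comparison used the 3 arrays labelled ethinyl estradiol and the 3 labelled estradiol benzoate, of 20 arrays in 6 groups, and all probes with 1 gene symbol (16865 of 35129 probes on the array). Every animal was a female Sprague Dawley rat from which the ovaries had been removed at 4 weeks of age. After 2 weeks of recovery the rats were gavaged daily for 3 weeks, and arteries were taken at 9 weeks of age. The compounds were given in a cyclodextrin vehicle, and 4 further arrays came from rats given that vehicle alone. The remaining groups received equilin at 0.15 mg/kg, tamoxifen at 3 mg/kg or raloxifene at 3 mg/kg. All 20 arrays entered the filter on dim probes and the estimate of the spread. Each array held RNA from 1 rat, so the replicates are individual animals. Since ovariectomy came before regular cycles began, all groups, vehicle included, lacked ovarian hormones from before puberty. The design text describes the arterial tree as cleared of veins and fat, and RNA was extracted from the whole tissue that remained.

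Estrogens act mainly through the nuclear receptors ESR1 and ESR2, which bind DNA at estrogen response elements or work through other DNA-bound factors. In arteries they act on endothelium and on smooth muscle, and by mouth they also act strongly on the liver. Estradiol benzoate is estradiol with a benzoate ester on the phenol of its A ring, and esterases release estradiol from it. Ethinyl estradiol carries an added ethynyl group on its D ring, which slows its metabolism. The doses were equal by mass. The ester is the heavier molecule, so the doses were not equal by mole. No plasma level was among the data analysed here, and exposure was not measured.

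Levels below are log2 intensities relative to the median of each array, and a difference is the ethinyl estradiol mean minus the estradiol benzoate mean on that scale. A gene is said to have passed where limma's Benjamini-Hochberg adjusted p, taken over all 24562 probes tested, was under 0.05. As 1 pair of compounds was compared, no further adjustment over pairs was needed. The 6 arrays had deposited medians of 1.04 to 1.06. All 6 belonged to the same array set, marked by a high level of 384 unnamed probes with regularly spaced probe numbers (array medians 0.69 to 1.48), as did vehicle array 1. Vehicle arrays 2 to 4 lay in the other set, at -1.89 or below, so vehicle array 1 is also counted alone where vehicle is compared. Ethinyl estradiol array 3 stood apart from the other 5, with a mean correlation of 0.924 with them. Arrays within the estradiol benzoate group correlated at 0.977 to 0.985, and arrays within the ethinyl estradiol group at 0.918 to 0.957.

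The compounds differed at a small share of the genes. Of the 13324 tested probes with 1 symbol, 39 passed (0.293%), 24 of them higher with ethinyl estradiol (0.18%) and 15 lower (0.113%). They stand for 35 genes, 21 higher and 14 lower. At each of the 39 probes the 3 and 3 arrays did not overlap, as was the case at 24.2% of all 1-symbol probes tested (16.3% higher and 7.87% lower). Overlap was judged on the same values as the test, so its absence here and below is no separate evidence. Over all probes, named or not, 69 passed (0.281%), 41 higher (0.167%) and 28 lower (0.114%). Another 30 of those 69 carry no symbol in the annotation.

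The size of most differences was small. The median difference over 10191 genes, each by its brightest complete probe, was 0.02. For 7227 genes (70.9%) the 95% confidence interval (CI) lay within 1 log2 unit of 0 on both sides. This bounds their difference at 2-fold on a scale that understates the change of dim genes. Only 1062 genes (10.4%) had an interval within 0.5, so smaller differences remain unresolved for most genes. An absolute difference over 1 was seen for 305 genes, 134 higher and 171 lower, most of which did not pass. At an unadjusted p under 0.05, 5.89% of the 10191 genes were higher and 4.35% lower. By the same probes, 0.167% passed higher and 0.137% passed lower. Each list count below, of genes that passed or at an unadjusted p under 0.05, is to be read beside these shares.

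**Figure D1:**
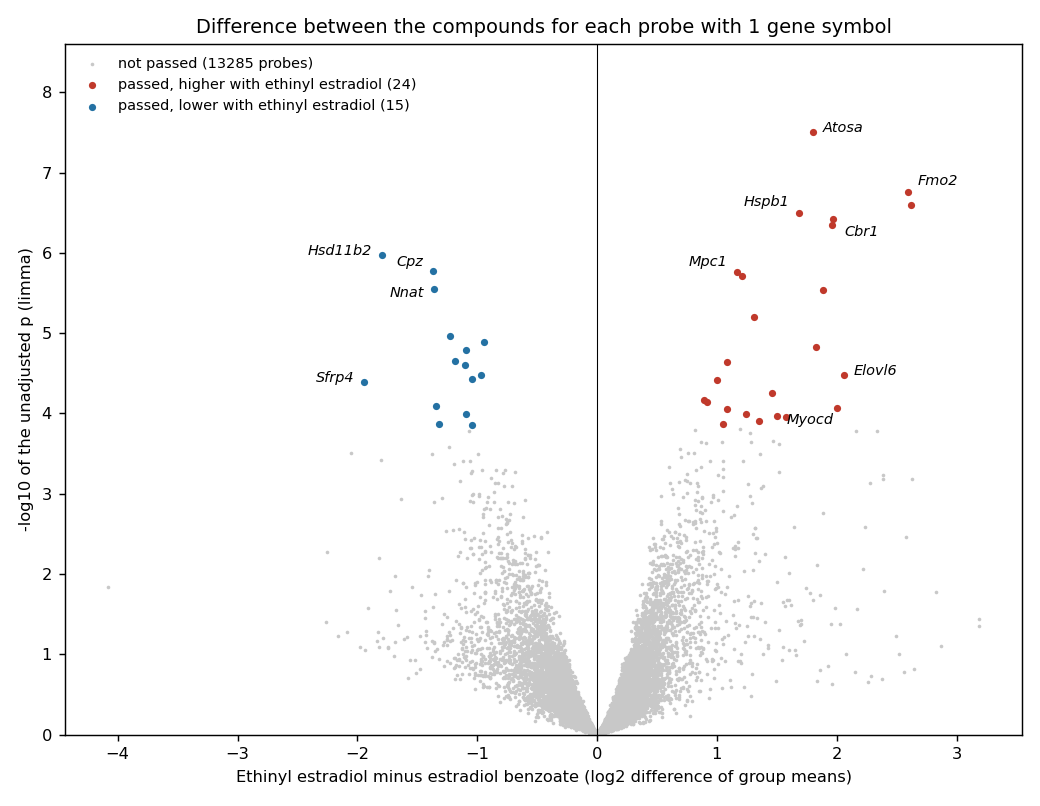
Each point is 1 of the tested probes with 1 gene symbol. The x axis is the log2 difference, ethinyl estradiol minus estradiol benzoate, and the y axis is -log10 of limma's unadjusted p. Coloured points passed after adjustment, 24 to the right (higher with ethinyl estradiol) and 15 to the left.

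Among the passing probes with 1 symbol the largest difference was that of Fmo2, and Cbr1, another enzyme of oxidation and reduction, also passed. Fmo2, a flavin-containing monooxygenase that oxidises nitrogen and sulfur compounds, read 5.10, 3.77 and 5.10 on the ethinyl estradiol arrays and 1.92, 2.47 and 1.72 on the estradiol benzoate arrays. Its lowest ethinyl estradiol array lay above its highest estradiol benzoate array. In deposited intensity these were 39.7, 15.5 and 39.1 against 4.28, 6.28 and 3.67. The difference was 2.62 ± 0.33 (SE, adjusted p = 0.00127), a 6.16-fold higher level, and another Fmo2 probe gave 2.60. Cbr1, a carbonyl reductase, read 6.34, 6.18 and 6.68 against 4.61, 4.33 and 4.37, a difference of 1.97 ± 0.26 (adjusted p = 0.00127). All 3 ethinyl estradiol arrays were thus far above all 3 of the other compound. Of 34 tested genes on a list of xenobiotic and antioxidant enzymes, 2 passed, both higher (Fmo2 and Cbr1), where 0.304% of all genes passed by 1 probe a gene (0.167% higher and 0.137% lower). On that list 5 were higher and 1 lower at an unadjusted p under 0.05, a level reached by 10.2% of all genes (5.89% higher and 4.35% lower), and the list's median was 0.21. Cyp2e1, a cytochrome P450, stood at 2.38 (95% CI 1.17 to 3.60) and did not pass (adjusted p = 0.109). Without estradiol benzoate array 1 it was 3.14 and passed (adjusted p = 0.0239). Prodh, proline dehydrogenase, passed at 1.25 ± 0.25 by 1 probe, whereas its other probe gave 0.06.

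Genes of fatty acid synthesis lay higher with ethinyl estradiol, where 3 of 23 on the list passed, all higher. The pathway turns citrate and acetate into acyl chains with reducing power from malic enzyme, and is best known from liver and fat. Me1, malic enzyme, read 5.63, 6.39 and 6.30 on the ethinyl estradiol arrays against 4.07, 4.34 and 4.00 with estradiol benzoate. The groups did not overlap, and the difference was 1.97 ± 0.25 (adjusted p = 0.00127), with 1.89 from a further probe. Elovl6, which lengthens fatty acids, read 0.68, 2.37 and 2.12 against -0.62, 0.18 and -0.56, a difference of 2.06 ± 0.37 (adjusted p = 0.0213). Its first ethinyl estradiol array lay well below the other two, and a brighter Elovl6 probe gave 1.33 and did not pass. Thrsp, a nuclear protein that promotes lipogenesis, passed at 1.08 ± 0.19, with levels of 8.07, 8.12 and 8.54 against 7.25, 7.15 and 7.08. After quantile normalisation it was 0.66 and did not pass (adjusted p = 0.166). Aacs, which activates acetoacetate for lipid synthesis, passed at 1.57 ± 0.32, with 2.33, 2.63 and 2.33 against 0.93, 1.21 and 0.43. In Thrsp and Aacs every ethinyl estradiol array exceeded every estradiol benzoate array.

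Over the whole list of fatty acid and triglyceride synthesis, 23 genes were tested, of which 3 passed by their brightest probe (Me1, Aacs and Thrsp), all higher, and 0 lower. At an unadjusted p under 0.05, 10 were higher and 0 lower (over all genes 5.89% higher and 4.35% lower). On this list 19 of 23 differences were above 0, with a median of 0.65 against 0.02 over all genes. Acly, ATP citrate lyase, stood at 1.32 (95% CI 0.53 to 2.12) and Acss2, which makes acetyl-CoA from acetate, at 1.10 (0.29 to 1.91). Acaca, the carboxylase that commits carbon to the pathway, stood at 0.87 (0.16 to 1.58) and Scd, a desaturase, at 1.15 (0.41 to 1.89). None of these 4 passed. Fasn, the synthase itself, stood at 2.58 (0.97 to 4.18). Its level on estradiol benzoate array 1 was 2.06, against 6.54 and 6.36 on the other 2, and without that array the difference was 1.11 (adjusted p = 0.499).

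Mpc1, a subunit of the mitochondrial pyruvate carrier, read 6.24, 6.40 and 6.42 against 5.25, 5.17 and 5.14. The arrays of each group lay close together and far from the other group, with a difference of 1.17 ± 0.17 (adjusted p = 0.00357). Among 21 tested genes of glycolysis and pyruvate entry, Mpc1 alone passed. At an unadjusted p under 0.05, 12 were higher and 1 lower (over all genes 5.89% higher and 4.35% lower). The list's median was 0.50, or 0.30 after quantile normalisation. Gapdh, a glycolytic enzyme, stood at 0.51 (95% CI 0.06 to 0.95), Pdha1, a subunit of pyruvate dehydrogenase, at 0.68 (0.11 to 1.25) and Pdk4, which inhibits that enzyme, at 2.39 (1.19 to 3.59). The gene lower on this list, Pfkl, a phosphofructokinase subunit, stood at -0.80, and another of its probes at 0.40. Lists of oxidative phosphorylation (37 genes, 6 higher and 0 lower at an unadjusted p under 0.05, median 0.19) and of sterol synthesis (19 genes, 4 and 0, median 0.20) held no gene that passed.

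Fkbp5 and Hsd11b2, of glucocorticoid action, and Hspb1 and Hsp90ab1, of the heat shock response, also passed. Fkbp5 encodes an HSP90 co-chaperone that restrains the glucocorticoid receptor and is itself induced by glucocorticoids. One Fkbp5 probe read 4.08, 3.78 and 3.18 with ethinyl estradiol against 1.82, 2.07 and 1.66, a difference of 1.83 ± 0.31 (adjusted p = 0.0145). Another Fkbp5 probe gave 2.00, and the groups were apart at both. Hsd11b2, the enzyme that inactivates corticosterone in the rat, went the other way, with -0.44, 0.30 and -0.42 against 1.29, 2.07 and 1.46. The ethinyl estradiol arrays were all lower, by 1.79 on the log2 scale (SE 0.25, adjusted p = 0.00264), a 3.47-fold lower level. Tsc22d3, another gene induced by glucocorticoids, stood at 1.26 (95% CI 0.23 to 2.28) and did not pass. The glucocorticoid-responsive genes Sgk1, at 0.09 (-0.31 to 0.48), and Per1, at 0.41 (-0.21 to 1.04), did not pass, nor did the receptor gene Nr3c1, at 0.07 (-0.41 to 0.55) by 1 probe and -1.15 by a dimmer one. Sgk1 and Nr3c1 lay just below 0 after quantile normalisation. On the list of steroid metabolism and steroid receptors, 1 of 20 tested genes passed higher and 1 lower (Fkbp5 and Hsd11b2).

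Hspb1, the small heat shock protein HSP27, read 7.55, 7.47 and 7.85 with ethinyl estradiol and 5.63, 6.32 and 5.87 with estradiol benzoate. The groups did not overlap, and the difference was 1.68 ± 0.21 (adjusted p = 0.00127), a 3.21-fold higher level. Hsp90ab1, the constitutive HSP90 chaperone, passed at 1.004 ± 0.18, with 6.37, 6.52 and 6.50 against 5.48, 5.57 and 5.32. Unc45a, a chaperone of myosin, passed at 1.46 ± 0.28, with 4.05, 4.04 and 4.58 against 2.66, 2.08 and 3.56, and a second probe gave 0.59. Of 28 tested genes on the list of immediate early and heat shock genes, 2 passed, both higher (Hspb1 and Hsp90ab1), and 0 lower. At an unadjusted p under 0.05, 9 were higher and 0 lower (over all genes 5.89% higher and 4.35% lower), with a median of 0.24. Among these were Hspa8, at 0.82 (95% CI 0.46 to 1.18), Hsph1, at 1.17 (0.52 to 1.82), Cryab, at 1.08 (0.24 to 1.92), and Dnajb1, at 0.68 (0.26 to 1.11), chaperones that did not pass. Hsph1 passed without ethinyl estradiol array 1 (1.63, adjusted p = 0.00942) and Hspa8 without estradiol benzoate array 2 (1.01, adjusted p = 0.0282).

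Of 24 tested smooth muscle contraction genes, 2 passed, both higher with ethinyl estradiol. Vascular smooth muscle gives the artery its tone through actin and myosin, and its gene programme is driven by serum response factor with the coactivator myocardin. Myocd, which encodes myocardin, read -0.24, -0.29 and -0.13 with ethinyl estradiol and -2.36, -1.76 and -1.05 with estradiol benzoate. The estradiol benzoate arrays were all lower and more spread, and the difference was 1.50 ± 0.30 (adjusted p = 0.0432). Myocd was dim, with deposited intensities of 0.88, 0.83 and 0.94 against 0.12, 0.24 and 0.45, all below the array medians. Lmod1, leiomodin, which nucleates actin filaments in smooth muscle, read 3.50, 3.51 and 3.68 against 2.32, 2.26 and 2.49. This is a difference of 1.21 ± 0.17 (adjusted p = 0.00364), with tight groups far apart. Ldb3, a Z-disc protein, passed at 0.89 ± 0.17, and its 5 other probes, none of which passed, gave 0.34 to 0.81.

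The contraction genes that passed were Myocd and Lmod1, and 0 were lower. At an unadjusted p under 0.05, 8 were higher and 0 lower (over all genes 5.89% higher and 4.35% lower). On this list 21 of 24 differences were above 0 and the median was 0.48, or 0.36 after quantile normalisation. Tagln, transgelin, stood at 0.84 (95% CI 0.38 to 1.31), Pln, phospholamban, at 0.65 (0.18 to 1.12), and the tropomyosin genes Tpm1 and Tpm2 at 0.47 (0.17 to 0.78) and 0.44 (0.02 to 0.86). Myh11, the smooth muscle myosin heavy chain, did not pass at 0.43 (-0.17 to 1.02), with levels of 8.23, 8.35 and 8.81 against 8.16, 8.07 and 7.86, and its other probe gave 0.96. After quantile normalisation these 5 differences were smaller, 0.54 for Tagln, 0.35 for Pln, 0.14 for Tpm1, 0.13 for Tpm2 and 0.12 for Myh11. Acta2, smooth muscle actin, stood at -0.06 (-0.76 to 0.63), by a dim probe whose difference turned positive when single arrays were left out.

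**Figure D2:**
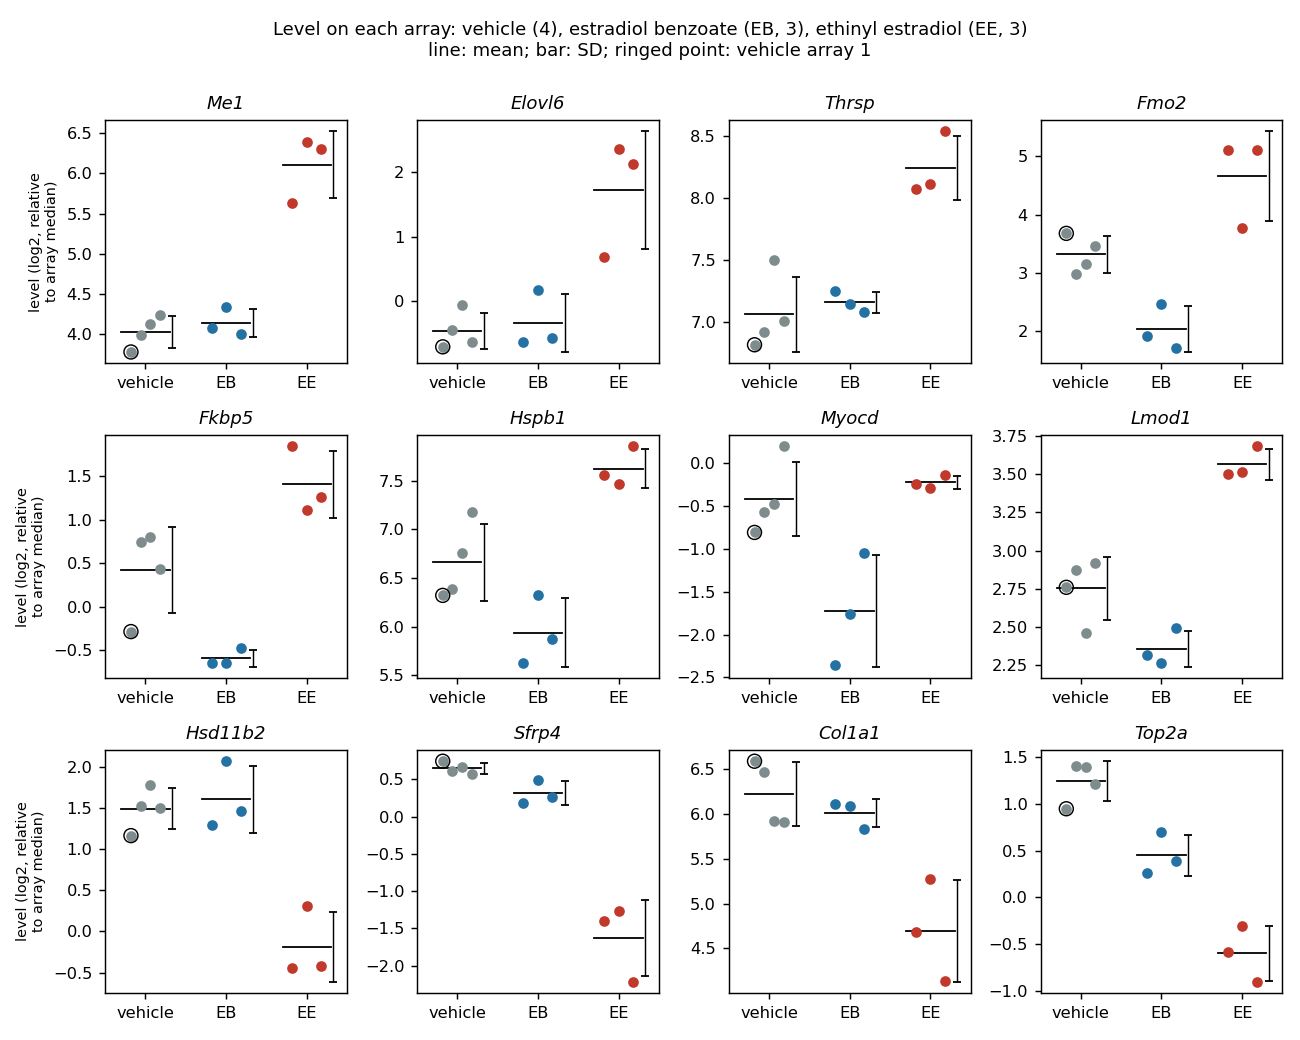
Levels of 12 of the genes that passed, on each array, in log2 units relative to the array median; each axis has its own range. Grey points are vehicle (array 1 ringed), blue estradiol benzoate (EB) and red ethinyl estradiol (EE), with the mean as a line and the SD as a bar. In every panel the red points lie wholly above or wholly below the blue points. Vehicle lies beside estradiol benzoate for Me1, Elovl6, Thrsp and Hsd11b2, and between the compounds for Fmo2 and Fkbp5.

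The promoters of the passing genes were searched for the DNA motifs of the factors named above, on both strands of the 250 bases before the start of each gene in RefSeq, build GRCr8. A promoter was matched for 25 of the 35 genes. The full estrogen response element (GGTCA and TGACC with 3 bases between) was found in 0 of 25 and in 0.0219% of all promoters. The glucocorticoid response element (GNACA and TGTNC with 3 bases between) was found in 0 of 25 and 0.364%. The hexamer AGGTCA, 1 arm of the estrogen response element, was found in 3 of 25 (Fmo2, Usp2 and Pola2) and in 13.7% of all promoters. The paired heat shock unit GAANNTTC was in 2 of 25 (Hspb1 and Top2a) and 7.02% of all, and the same unit followed by NNGAA in 0 of 25 and 0.597%. The sterol response element TCACNCCAC was found in 0 of 25 and 0.976%. The CArG box, which serum response factor binds, was found in 1 of 25 (Ldb3) and 1.5%. A match is a description of these letters and not a binding site. The promoters of Fmo2, Hspb1 and Ldb3 are shown because they stand for the oxidation, heat shock and muscle genes described above, each read 5′ to 3′ towards the gene on the minus strand, with the matched letters in capitals: the hexamer on its opposite strand in Fmo2 (chr13:77777535-77777784), paired heat shock units in Hspb1 (chr12:26432302-26432551) and the CArG box in Ldb3 (chr16:9924680-9924929).
Fmo2: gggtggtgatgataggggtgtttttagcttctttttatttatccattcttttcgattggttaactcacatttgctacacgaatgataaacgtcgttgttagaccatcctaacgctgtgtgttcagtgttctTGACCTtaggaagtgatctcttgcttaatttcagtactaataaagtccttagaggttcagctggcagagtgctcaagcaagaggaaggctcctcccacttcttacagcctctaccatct
Hspb1: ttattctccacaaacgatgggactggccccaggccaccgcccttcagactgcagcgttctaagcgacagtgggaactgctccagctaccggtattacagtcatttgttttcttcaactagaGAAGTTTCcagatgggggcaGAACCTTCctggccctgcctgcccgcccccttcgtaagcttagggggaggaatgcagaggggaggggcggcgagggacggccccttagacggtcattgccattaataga
Ldb3: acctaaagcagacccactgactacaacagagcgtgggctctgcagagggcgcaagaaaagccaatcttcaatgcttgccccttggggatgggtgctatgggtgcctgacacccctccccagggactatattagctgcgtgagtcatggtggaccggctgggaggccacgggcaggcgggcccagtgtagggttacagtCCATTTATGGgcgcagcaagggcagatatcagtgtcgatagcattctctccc

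Sfrp4 and Cpz, of Wnt signalling, and the collagen gene Col1a1 were lower with ethinyl estradiol. Wnt ligands act through frizzled receptors, and secreted frizzled-related proteins bind the ligands outside the cell. Sfrp4, one of these, read -1.40, -1.27 and -2.22 with ethinyl estradiol and 0.18, 0.49 and 0.26 with estradiol benzoate. The level was lower by 1.94 on the log2 scale and the groups were far apart (difference -1.94 ± 0.36, adjusted p = 0.0221). Sfrp4 was dim with ethinyl estradiol, where deposited intensities were 0.33, 0.37 and 0.14 against 1.21, 1.52 and 1.28. Cpz, a secreted carboxypeptidase with a Wnt-binding domain, read 1.87, 1.62 and 1.53 against 3.02, 3.14 and 2.97, a difference of -1.37 ± 0.20 (adjusted p = 0.00357). Of 17 tested Wnt modulators, these 2 passed, both lower, and 0 higher. Of these 17, 4 were lower and 1 higher at an unadjusted p under 0.05 (over all genes 4.35% lower and 5.89% higher). The list's median was 0.00 and took the other sign in 9 of 24 settings (the main fit counted among them), reaching -0.16. Sfrp2 stood at -1.03 (95% CI -1.58 to -0.48) and did not pass.

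Col1a1, a chain of type I collagen, read 4.68, 5.28 and 4.13 with ethinyl estradiol against 6.12, 6.09 and 5.84. The arrays did not overlap, and the difference was -1.32 ± 0.27 (adjusted p = 0.0495), with -1.22 (adjusted p = 0.0119) from another probe. Cthrc1, a secreted protein of collagen-producing cells, passed at -1.10 ± 0.22 and Prrx2, a homeobox factor of mesenchyme, at -1.05 ± 0.19. Among 45 tested genes of the extracellular matrix, Col1a1 alone passed. At an unadjusted p under 0.05, 9 were lower and 2 higher (over all genes 4.35% lower and 5.89% higher), with a median of -0.18. Those lower were Postn, periostin, at -1.07 (95% CI -1.55 to -0.60, adjusted p = 0.0537), Fn1, fibronectin, at -0.84 (-1.26 to -0.42), Pcolce, a procollagen processing enhancer, at -0.75 (-1.16 to -0.33), Col1a2 at -0.73 (-1.34 to -0.12), Tnc, tenascin C, at -0.82 (-1.57 to -0.06), Loxl1, Col14a1, Fbln2 and Col1a1. After quantile normalisation Postn (-1.19, adjusted p = 0.0101), Fn1 (-1.02, adjusted p = 0.00531) and Pcolce (-0.99, adjusted p = 0.00589) also passed. Without ethinyl estradiol array 1 Tnc was -0.45, and without array 3 Col1a2 was -0.47. Eln, elastin, the main elastic protein of the artery wall, did not pass at -0.40 (-0.86 to 0.06).

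Top2a and Pola2, of DNA replication, were lower with ethinyl estradiol. Top2a, a topoisomerase of dividing cells, read -0.58, -0.31 and -0.90 against 0.26, 0.69 and 0.39, without overlap, a difference of -1.04 ± 0.22 (adjusted p = 0.0495). Pola2, a subunit of DNA polymerase alpha, passed at -1.34 ± 0.26, with -0.86 by its other probe. Of 41 tested cell cycle genes, Top2a alone passed. At an unadjusted p under 0.05, 8 were lower and 0 higher (over all genes 4.35% lower and 5.89% higher), and the median was -0.23. Mki67 stood at -0.58 (95% CI -1.25 to 0.10) and Pbk, a mitotic kinase, at -0.99 (-1.66 to -0.31), and neither passed. Values of Cdk1 and Ccnd1 rested on single arrays. Cdk1 went from -1.16 to -0.45 without ethinyl estradiol array 3, and Ccnd1 from -1.91 to -0.30 without ethinyl estradiol array 2, whose Ccnd1 level was -1.41 against 3.23 and 3.59.

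The other passing genes belong to no list above. Higher with ethinyl estradiol were Atosa (1.80 ± 0.19, adjusted p = 0.00077), with 5.02, 4.76 and 4.89 against 3.20, 3.03 and 3.04, and Ntsr1, the neurotensin receptor (1.31 ± 0.21). Another Atosa probe, of like brightness, gave 1.14 with overlapping groups and did not pass (adjusted p = 0.248). Cx3cl1, the chemokine fractalkine, passed at 0.92 ± 0.18, Usp2, a deubiquitinase, at 1.05 ± 0.22, Rasl11b, a small GTPase, at 1.09 ± 0.22 and Spink5, a serine protease inhibitor, at 1.35 ± 0.28. The 2 other Usp2 probes, both brighter, gave 0.41 and 0.46 and did not pass. The 2 other Spink5 probes gave 1.47 and 2.16 and did not pass. Lower with ethinyl estradiol was Nnat, neuronatin, an imprinted membrane protein gene, with 5.85, 5.48 and 5.75 against 7.03, 7.11 and 7.03. Its difference was -1.36 ± 0.20 (adjusted p = 0.00419) and its arrays were tightly grouped. Inhbb, a subunit of activin and inhibin, passed at -1.09 ± 0.19, Tekt1, a protein of cilia, at -1.19 ± 0.21 and Sox15, a transcription factor, at -1.10 ± 0.20. Tekt1 and Sox15 were dim. Deposited intensities were 0.24, 0.14 and 0.13 against 0.56, 0.49 and 0.49 for Tekt1. For Sox15 they were 0.14, 0.15 and 0.14 against 0.39, 0.52 and 0.40. Adcy2, an adenylyl cyclase, passed at -0.95 ± 0.16 and Tmem86a, which breaks down lysoplasmalogen lipids, at -0.97 ± 0.18.

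Receptors for estrogen and classical estrogen-responsive genes did not pass. Esr1 read -0.23, -0.36 and -0.75 with ethinyl estradiol and -0.92, -0.54 and -0.47 with estradiol benzoate, so the groups overlapped. Its difference was 0.20 (95% CI -0.27 to 0.67), which bounds it below 1 log2 unit. Esr2 gave -0.25 (-0.58 to 0.07) by 1 probe and 0.38 by another, and Gper1, a membrane estrogen receptor, 0.54 (-0.06 to 1.14), with 0.95 and 0.30 without ethinyl estradiol arrays 2 and 3. Pgr, the progesterone receptor, a standard estrogen target in reproductive tissue, stood at -0.11 (-0.47 to 0.25) and at 0.057 without ethinyl estradiol array 3. Hsd17b2, which oxidises estradiol to estrone, stood at -0.21 (-0.65 to 0.22). Oxtr, the oxytocin receptor, stood at -0.71 (-1.26 to -0.16), and at -0.32 without ethinyl estradiol array 3. Greb1 is not analysed here. Over 24 tested genes of this list 0 passed by limma, with 3 higher and 4 lower at an unadjusted p under 0.05 and a median of -0.20, or -0.03 without ethinyl estradiol array 3.

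Of the lists of vessel tone, only the vasoactive receptors held a gene that passed, Ntsr1 (26 tested, 3 higher and 3 lower at an unadjusted p under 0.05, median 0.01). On the angiotensin, apelin and natriuretic peptide list (19 tested) 2 were higher and 4 lower, with a median of -0.23. For nitric oxide, prostanoid and endothelin synthesis (27 tested) the counts were 3 and 1 with a median of 0.04, and for calcium and potassium handling (27 tested) 3 and 5 with a median of 0.13. Over all genes, 5.89% were higher and 4.35% lower at that level. The genes described next did not pass with all arrays. Apln, the vasodilator peptide apelin, read 0.11, 0.52 and -2.38 with ethinyl estradiol and 1.60, 1.56 and 1.25 with estradiol benzoate. All ethinyl estradiol arrays were lower, array 3 by far the most, and the difference was -2.05 ± 0.46 (adjusted p = 0.0776). Without array 3 it was smaller, -1.15, and passed (adjusted p = 0.0208), as it did without array 2 (-2.60, adjusted p = 0.0147). The apelin receptor gene Aplnr stood at -1.80 (95% CI -2.67 to -0.93, adjusted p = 0.0845), with 1.31, 2.01 and 0.37 against 3.21, 3.17 and 2.71, and another of its probes at -0.29. Aplnr passed without ethinyl estradiol array 2 (-2.19, adjusted p = 0.0328) and after quantile normalisation (-1.86, adjusted p = 0.0399). Rgs2, which shortens signals of vasoconstrictor receptors, stood at 2.33 (1.30 to 3.37, adjusted p = 0.0537), and at 1.49 (adjusted p = 0.126) without estradiol benzoate array 1, its lowest. Without estradiol benzoate array 2 it was 2.83 and passed (adjusted p = 0.0282). Cacnb2, a calcium channel subunit, stood at 1.20 (0.67 to 1.72, adjusted p = 0.0534), and Npy1r, a receptor for neuropeptide Y, at 1.17 (0.41 to 1.94), with 0.33 by its other probe. Ptgs2, the inducible cyclooxygenase, stood at -1.63 (-2.52 to -0.74), and Ptgis, prostacyclin synthase, at 0.69 (0.25 to 1.13).

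The vessel genes Nos3, Edn1 and Agtr1a had smaller differences, and neither they nor Igf1 and Cish passed. Nos3, endothelial nitric oxide synthase, read 4.90, 4.85 and 4.86 against 4.01, 5.15 and 4.72, and the groups overlapped. Its difference was 0.24 (95% CI -0.34 to 0.82) and turned to -0.069 without estradiol benzoate array 1. Edn1, endothelin, stood at 0.35 (-0.37 to 1.06) and Agtr1a, an angiotensin receptor, at -0.23 (-0.83 to 0.37). Igf1 stood at -1.12 (-2.32 to 0.08), and Cish, a target of STAT5, at -0.81 (-1.76 to 0.14), with 0.32 and -0.06 by its other 2 probes. Cish was -0.43 without estradiol benzoate array 1 and -1.43 without array 2. The intervals of all 5 hold 0, and those of Edn1, Igf1 and Cish also hold a difference of over 1 log2 unit.

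**Figure D3:**
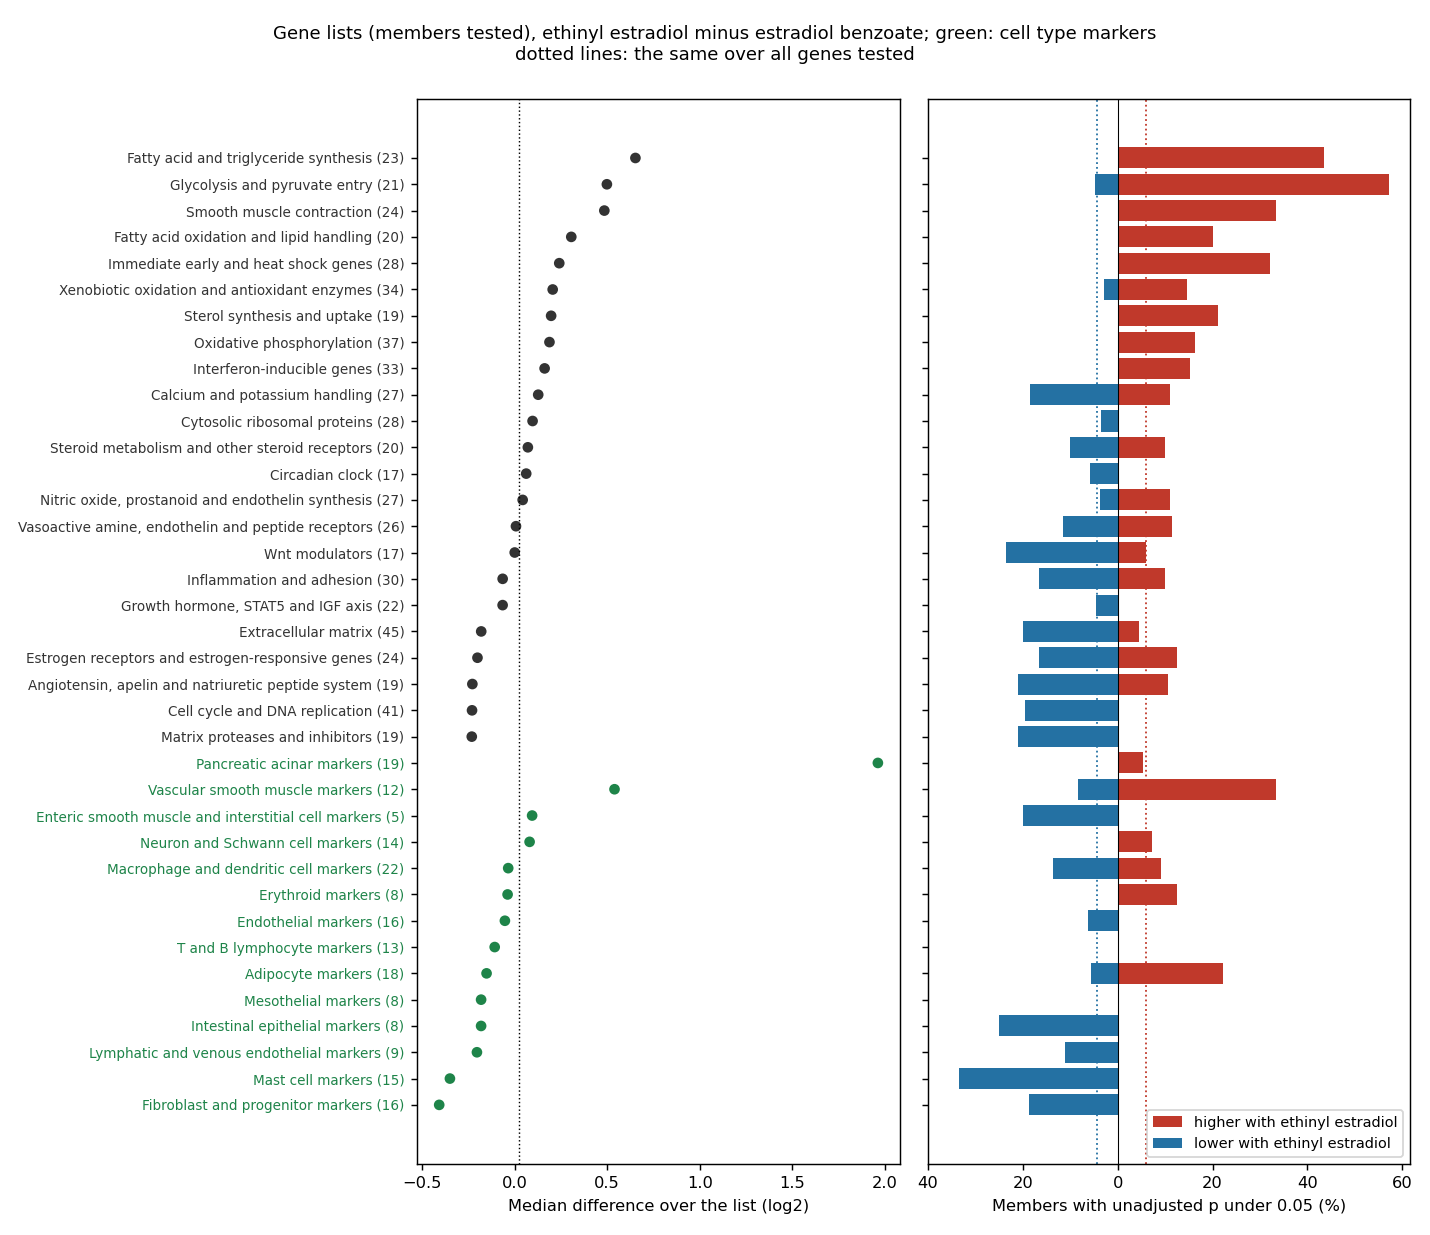
Gene lists, with the number of members tested in brackets. The left panel gives the median log2 difference (ethinyl estradiol minus estradiol benzoate) and the right panel the percentage of members at an unadjusted p under 0.05, higher in red and lower in blue; dotted lines give the same over all genes tested. Fatty acid synthesis, glycolysis and smooth muscle contraction have the highest pathway medians (0.65, 0.50 and 0.48), and the median of the pancreatic acinar markers, 1.96, comes from 1 array.

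Markers of cell types were examined for the same 6 arrays. In whole tissue, fewer cells of a type and less RNA per cell cannot be told apart. The labelled tissue is borne out by smooth muscle markers, with Myh11 at 8.46 ± 0.31 (SD, n = 3) with ethinyl estradiol and 8.03 ± 0.15 with estradiol benzoate. Of 12 smooth muscle markers 2 passed, both higher, the same Myocd and Lmod1. At an unadjusted p under 0.05, 4 of the 12 were higher and 1 lower, where over all genes 5.89% were higher and 4.35% lower. The smooth muscle marker list had 9 differences above 0 and a median of 0.54, or 0.23 after quantile normalisation. Of 16 endothelial markers 0 passed and 1 was lower at an unadjusted p under 0.05, with a median of -0.05. Fibroblast markers (16 tested) had 3 lower and 0 higher at that level and a median of -0.41. Mast cell markers (15 tested) had 5 lower and 0 higher and a median of -0.35. Among the latter were Hdc, which makes histamine, at -0.54 (95% CI -0.96 to -0.12), Cpa3, a granule protease, at -0.41 (-0.76 to -0.06), and Mcpt10, at -0.68 (-1.12 to -0.24). No fibroblast or mast cell marker passed by limma. The mean level of the 16 fibroblast markers was 3.16 to 3.49 on the ethinyl estradiol arrays and 3.66 to 3.80 on the estradiol benzoate arrays. The mean level of the matrix list was 4.18, 4.38 and 4.09 against 4.25, 4.44 and 4.47, so there the groups overlapped. The part of fibroblast RNA in the matrix results was not tested.

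Adipocyte RNA was present, as Adipoq, adiponectin, read 6.73, 6.65 and 6.37 with ethinyl estradiol and 6.71, 6.48 and 6.53 with estradiol benzoate. The groups overlapped, with a difference of 0.01 (95% CI -0.42 to 0.44). The 18 adipocyte markers tested had a median difference of -0.15, or 0.09 without ethinyl estradiol array 3, with 4 higher and 1 lower at an unadjusted p under 0.05, and 0 passed. Their mean level was 4.45, 4.43 and 4.10 against 4.49, 4.27 and 4.26, so the groups overlapped. The mean level of the fatty acid synthesis list was 3.73, 4.28 and 4.08 with ethinyl estradiol against 3.18, 3.37 and 3.40, and the part of adipocyte RNA in that difference was not tested.

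Pancreatic acinar markers stood out on ethinyl estradiol array 3. The mean level of the 19 tested was 5.07 there, against -0.82 and -1.14 on the other ethinyl estradiol arrays and -1.27 to 0.02 with estradiol benzoate. The list's median difference was 1.96 with all arrays and -0.14 without array 3, and 0 of its genes passed. Cela1, an elastase of pancreatic acinar cells, read -0.34, -0.14 and 6.69 on the ethinyl estradiol arrays. Without array 3 the median was 0.81 for the fatty acid list, 0.60 for smooth muscle contraction, -0.12 for the matrix and -0.23 for the cell cycle, so these lists kept their sign.

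**Figure D4:**
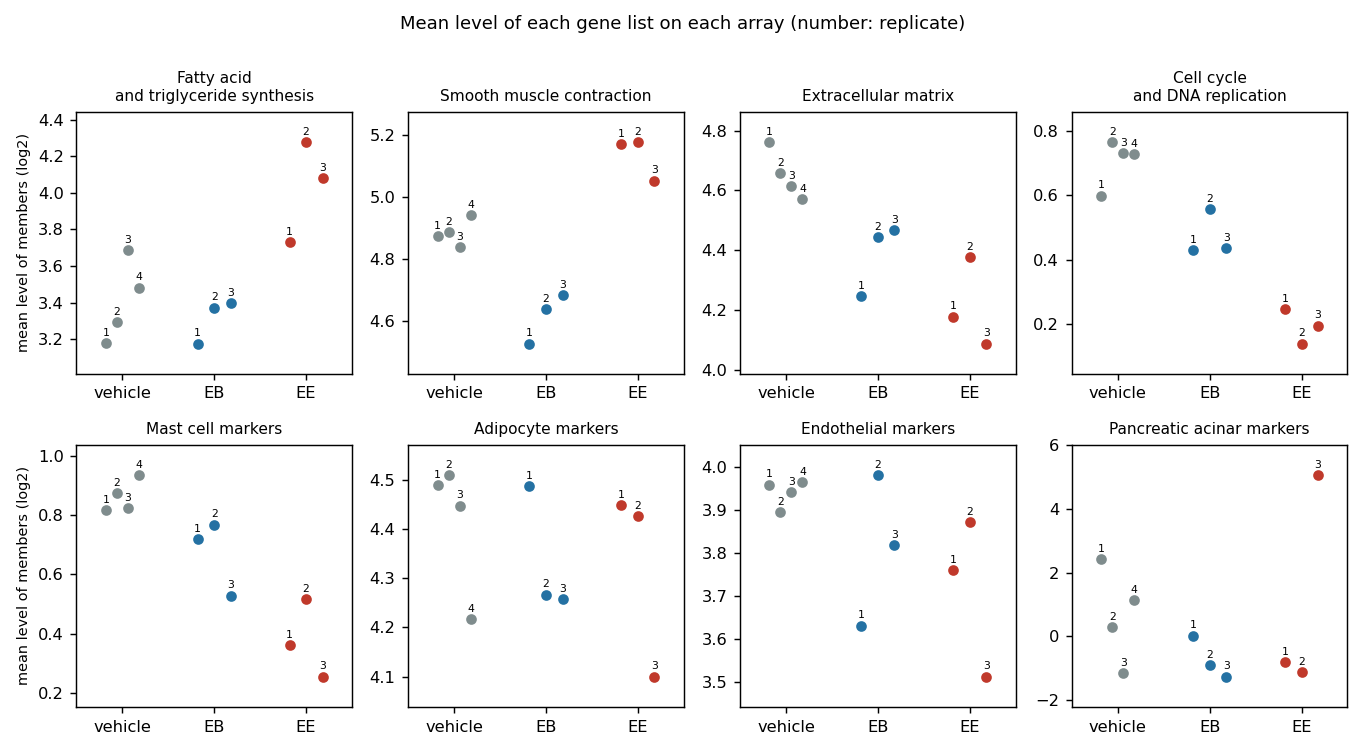
Mean log2 level of the members of 8 gene lists on each array of the vehicle, estradiol benzoate (EB) and ethinyl estradiol (EE) groups, with the replicate number beside each point; each axis has its own range. The EE arrays lie above all EB arrays for fatty acid synthesis and smooth muscle contraction and below them for the cell cycle and mast cell markers; EE array 3 is highest for pancreatic acinar markers (5.07).

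Setting both compounds beside vehicle shows which group departed from it. The comparisons share the vehicle arrays, so only values are given. Vehicle means are over 4 arrays, of which arrays 2 to 4 belong to the other array set. Where the estradiol benzoate mean is put at 0 and the ethinyl estradiol mean at 1, the vehicle mean lay at 0.25 or less for 9 of the 21 higher genes and 13 of the 14 lower genes. It lay between 0.25 and 0.75 for 10 higher and 0 lower genes, and above 0.75 for 2 higher genes (Myocd and Unc45a) and 1 lower gene (Inhbb). With vehicle array 1 alone, from the same array set, the counts at 0.25 or less were 14 and 12. Above 0.75 lay then 1 higher gene (Hsp90ab1) and 1 lower gene (Inhbb), with Myocd at 0.611 and Unc45a at 0.737. The lower genes were thus mostly near vehicle with estradiol benzoate and below it with ethinyl estradiol.

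Among the lipid genes, the distance from vehicle was greater with ethinyl estradiol in each gene given here. Me1 was 2.08 ± 0.24 (SE) above vehicle with ethinyl estradiol and 0.11 ± 0.24 with estradiol benzoate, Elovl6 2.18 and 0.12, Thrsp 1.18 and 0.10, and Mpc1 1.17 and 0.00. Of those that did not pass between the compounds, Scd was 1.96 above vehicle with ethinyl estradiol and 0.81 with estradiol benzoate, and Acaca 1.38 and 0.51. Fmo2 and Fkbp5 lay on either side of vehicle. Fmo2 was at 1.34 with ethinyl estradiol and -1.28 with estradiol benzoate. Fkbp5 was at 0.98 and -1.01 by its dimmer probe, the one with the larger difference, and at 0.58 and -1.25 by its brighter probe. With vehicle array 1 alone, vehicle lay on the scale above at 0.626 for Fmo2 and at 0.154, near estradiol benzoate, for the dimmer Fkbp5 probe. By the brighter Fkbp5 probe vehicle array 1 read 2.87, between the estradiol benzoate mean of 1.85 and the ethinyl estradiol mean of 3.68. In the muscle genes the values differed again. Myocd was at 0.19 with ethinyl estradiol and -1.31 with estradiol benzoate, and Unc45a at 0.12 and -1.34, whereas Lmod1 was at 0.81 and -0.39. Among the lower genes, Hsd11b2 was at -1.68 with ethinyl estradiol and 0.12 with estradiol benzoate, Sfrp4 at -2.28 and -0.33, Col1a1 at -1.53 and -0.21, and Nnat at -1.58 and -0.22. Inhbb was the exception, at -0.23 with ethinyl estradiol and 0.86 with estradiol benzoate. Top2a lay below vehicle with both, at -1.83 and -0.79.

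**Figure D5:**
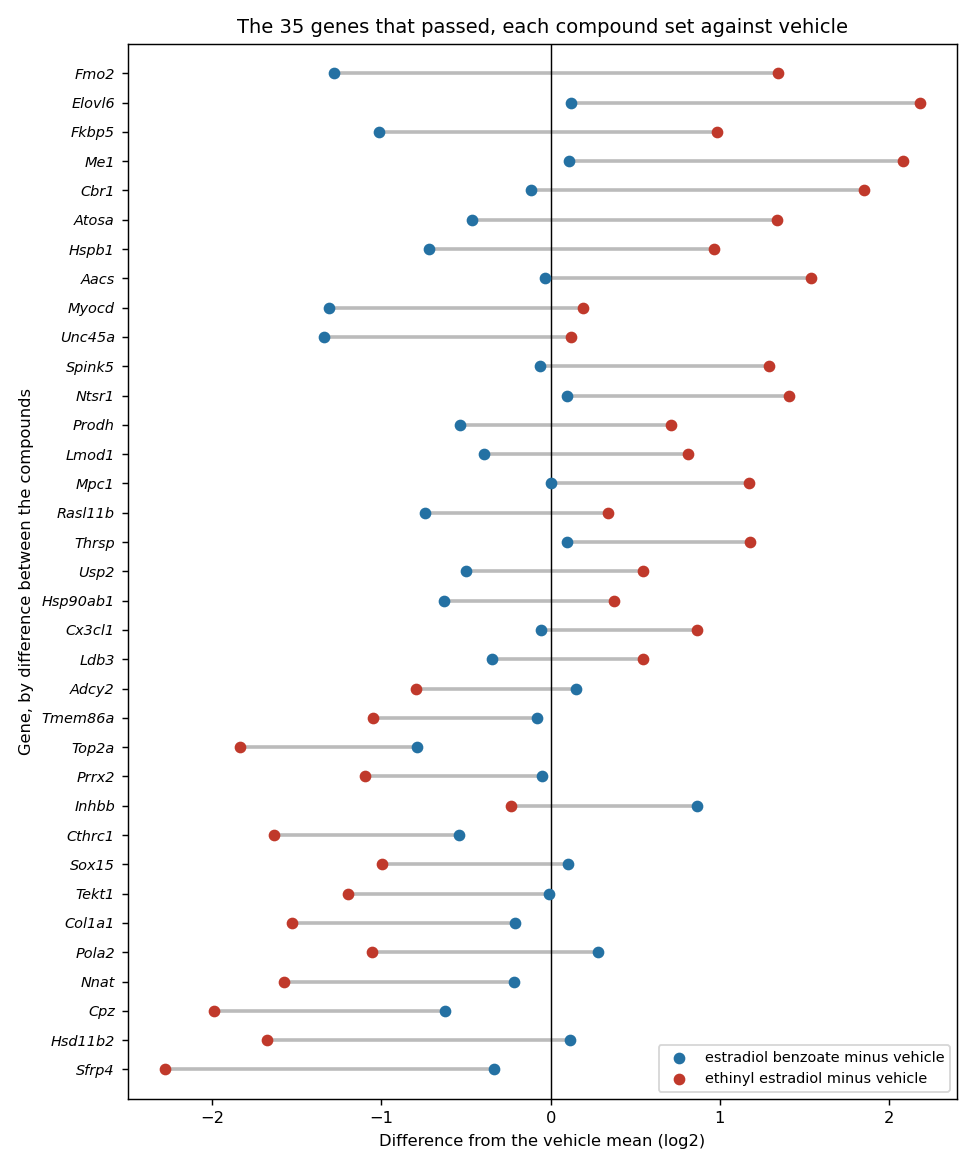
The 35 genes that passed, ordered by the difference between the compounds. The x axis is the log2 difference from the vehicle mean, blue for estradiol benzoate and red for ethinyl estradiol, joined by a grey line whose length is the difference between them. Most lower genes have the blue point near 0, and Myocd and Unc45a have the red point near 0.

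Equilin, another estrogen, given at 0.15 mg/kg per day in the same array set, gave levels between the other 2 for most of these genes. On the same scale it lay between 0.25 and 0.75 for 11 of the 21 higher and 13 of the 14 lower genes. Above 0.75 lay Cbr1, Mpc1 and Spink5, and near Me1's ethinyl estradiol level of 6.11 equilin read 5.58. In contrast, equilin read 5.77 for Hspb1 and 2.44 for Lmod1, close to the estradiol benzoate means of 5.94 and 2.36. Myocd, with -1.51 under equilin, lay near the estradiol benzoate mean of -1.72. These positions are a description and were not tested.

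The calls rest on a spread estimated over all 20 arrays. In a fit of only the 6 arrays 0 probes passed by limma, with 3340 at an unadjusted p under 0.05 and a lowest adjusted p of 0.0717. That fit has the same group means, so the direction of the 39 named probes could not change there. The number of 1-symbol probes that passed was 160 without raloxifene array 3, which correlated least with the rest and whose removal also made Postn, Fn1, Apln, Aplnr, Acly, Acss2, Tagln, Hspa8, Rgs2, Cacnb2, Ptgs2, Tsc22d3, Sfrp2, Igfbp5 and Pfkl pass, and 265 with array weights. Leaving out ethinyl estradiol array 1, 2 or 3 gave 20, 40 or 21, and leaving out estradiol benzoate array 1, 2 or 3 gave 16, 20 or 21. After quantile normalisation 52 passed, with a split over all probes of 37 higher and 45 lower in place of 41 and 28. Aacs, Thrsp, Hsp90ab1, Cx3cl1, Ldb3, Spink5, Tekt1 and Sfrp4 no longer passed there. The calls of 11 probes for 10 genes (Fmo2, Me1, Cbr1, Atosa, Hspb1, Lmod1, Mpc1, Nnat, Cpz and Hsd11b2) held in every alternative but the 2 fits of the 6 arrays alone, and the other 28 probes lost theirs in at least 1 further alternative. Of the 39, 24, 13 or 23 no longer passed without ethinyl estradiol array 1, 2 or 3, and 26, 22 or 22 without estradiol benzoate array 1, 2 or 3.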

How the data were processed

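CodeLink whole rat genome arrays, read in 1 colour, held RNA of 1 rat each. The values deposited by the authors are linear intensities, already background-subtracted and scaled as judged from the values, by a program not given in the sources used here. Values at or below 0 were set to 0, 0.103 (0.1 times the table median) was added, and log2 values were centred on each array's median. The offset understates the change of dim genes. Left out were 40 probes with missing values and the dimmest 30%. One limma fit (version 3.58.1, R 4.3.3) of 6 group means over 20 arrays with a variance trend gave the contrast. When tested on simulated data, changes of 0.5, 1, 1.5 and 2 (log2) in 50 probes each gave 1, 17, 34 and 36 calls, with 5 false calls among 24362 other probes. The simulated noise was normal, independent between probes and equal in all groups, and changes were added on the log2 scale. Background, the offset, outlying arrays and deviations shared across an array were not modelled, so these counts are not error rates of the real data. The number of arrays limits the precision.

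The comparison and the 37 gene lists were chosen with earlier results of these data known. The rule named up to 15 passing genes each way, up to 4 passing members of a list and 20 fixed genes; other genes were named after their values were seen. Lists use each gene's brightest complete probe. Alternatives were other scalings, offsets, filters, variance models, array sets and blocks, and leaving out each array. Replicate numbers did not pair the samples.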

Additional observations from a re-analysis of the deposited data

Results flagged for a closer look

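Of 104 named probes, 6 had 1 vehicle array set apart from the other 3 beyond Dixon's critical value, about the number that chance gives at 1 in 20. The gap over the range was 0.841 for Rasl11b on vehicle array 4 (level 4.94), 0.882 for Tagln on vehicle array 4 (7.69), 0.863 for Hsd17b2 on vehicle array 1 (-2.40), 0.835 for Cpa3 on vehicle array 2 (2.08), 0.84 for Prrx2 on vehicle array 3 (2.05) and 0.871 for Inhbb on vehicle array 2 (1.72). These arrays enter the comparison of the compounds only through the shared variance. The groups of 3 arrays were not examined in this way.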

How the results depend on the processing

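The differences of the 39 passing probes kept their direction in every alternative in which they were tested. Most alternatives could not have changed it. Fits that alter only the other arrays or the variance model use the same group means. Groups that do not overlap also keep their sign when a single array is left out. The number of probes that passed, 69 in all and 39 with 1 symbol, became 431 and 265 with array weights, 259 and 160 without raloxifene array 3, 143 and 88 in a fit of the 9 estrogen arrays, and 0 and 0 by limma in a fit of the 6 compared arrays (3340 at an unadjusted p under 0.05). It was 225 and 136 without raloxifene array 3 and ethinyl estradiol array 3, an alternative chosen after seeing the data. Testing only 1-symbol probes gave 41, since fewer probes were tested. Leaving out single compared arrays gave 23 (without estradiol benzoate array 1) to 77 (without ethinyl estradiol array 2) in all and 16 to 40 with 1 symbol. Same-numbered arrays had deviations correlating at 0.08, 0.03 and 0.06. With the replicate number as a block, 0 probes passed by limma over the 6 arrays (2848 at an unadjusted p under 0.05), and 48, of which 28 had 1 symbol, passed over all 20 arrays, a fit added after seeing the data. With no filter on dim probes, 53 and 28 passed. Apart from the fits with fewer samples or probes, the cause was not tested.

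Differences near 0 that did not pass changed sign as follows. After quantile normalisation Sgk1 was -0.0057, Nr3c1 -0.0185 and Adipoq -0.22. Acta2 was 0.0505 with array weights and 0.0789 with both outlying arrays left out, where Pgr was 0.0568. With single arrays left out, the range was -0.209 to 0.0568 for Pgr, -0.0686 to 0.502 for Nos3, -0.0671 to 0.116 for Adipoq and -0.337 to 0.0789 for Acta2. Signal near background and the number of arrays limit what can be resolved. In the simulation, which did not model background, 17 of 50 probes changed by 1 log2 unit were recovered.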

Other observations

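Of 33 tested interferon-inducible genes, 0 passed by limma, and at an unadjusted p under 0.05 5 were higher with ethinyl estradiol and 0 lower, with a median of 0.16. Ubd, a ubiquitin-like protein induced by cytokines, stood at 2.28 (95% CI 1.10 to 3.46, adjusted p = 0.113), with levels of 0.44, 0.86 and 0.79 against -1.30, -2.58 and -0.87. Of 17 circadian clock genes 0 passed and 1 was lower at an unadjusted p under 0.05, with a median of 0.06. Over all genes, 5.89% were higher and 4.35% lower at that level. Vipr2, a receptor for vasoactive intestinal peptide, stood at -1.44, and at -0.89 without ethinyl estradiol array 3. Igfbp5, which binds insulin-like growth factors, stood at -0.85 (-1.29 to -0.41), with -0.27 by another probe, and passed after quantile normalisation (-1.05, adjusted p = 0.00589). Fdps, of sterol synthesis, stood at 0.67 (0.04 to 1.29) and Cpt1a, which admits fatty acids to the mitochondrion, at 0.82 (0.26 to 1.38). Col4a1, a basement membrane collagen, stood at 1.43, and at 0.01 without estradiol benzoate array 1, on which it read 1.41 against 5.59 and 5.75. Kcnj8, a potassium channel subunit, stood at -0.62, and at -0.09 without ethinyl estradiol array 3, and its other probe at 0.01.

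The median SD over probes was 0.239 for ethinyl estradiol and 0.153 for estradiol benzoate. For ethinyl estradiol arrays 1 and 2 alone it was 0.143. Among the 30 passing probes without a symbol, 17 were higher and 13 lower with ethinyl estradiol, and 0 of them belonged to the regularly spaced class.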
